A study of Mus musculus with 2 samples.

Results

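The genes described here are 10 receptor genes of debris and apoptotic-cell uptake: Marco, Msr1, Olr1, Cd68, Stab1 and Cd163, which encode scavenger receptors, and Mertk, Axl, Timd4 and Lrp1, which encode receptors that take part in the clearance of dying cells. They were chosen by name and make up 10 of the 22180 genes that an array feature named alone. Earlier results of these data were known when these genes and the gene lists below were chosen. Each of the 10 had 1 feature. The cells were alveolar macrophages, which live in the air spaces of the lung. They were sorted by flow cytometry from animals 8 to 10 weeks old. The data comprised 1 Affymetrix array from mice labelled Lysm-Cre Ssu72fl/fl and 1 from Lysm-Cre mice, whose sample titles call them KO and WT (the labels join the first genotype as Lysm-CreSsu72fl/fl). Both groups carried Lysm-Cre, a Cre recombinase allele at the lysozyme 2 gene that is active in myeloid cells. The first group also carried alleles of Ssu72, a phosphatase gene of the RNA polymerase II C-terminal domain, flanked by recombination sites. The sources used here do not give the number of mice behind each array or the markers of the sort.

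Scavenger receptors bind modified lipoproteins, bacteria and polyanionic particles and carry them to lysosomes. Efferocytosis is the uptake of apoptotic cells, which are recognised by phosphatidylserine on their surface. Timd4 protein binds that lipid directly, whereas the receptor tyrosine kinases Mertk and Axl bind it through bridging proteins, Gas6 for both and Pros1 for Mertk. Alveolar macrophages use both kinds of receptor to keep the air spaces free of inhaled particles, spent surfactant and dead cells. Mouse airway macrophages are known for Marco and Axl, while Timd4, Cd163 and Stab1 are better known from resident macrophages of other tissues.

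All values are the deposited signals on a log2 scale, and each difference is the array labelled Lysm-Cre Ssu72fl/fl minus the Lysm-Cre array. With 1 array per genotype there is no replicate check, so no test between genotypes was possible. The precision of each difference is limited by that number. The Ssu72 signal was 4.998 on the array labelled Lysm-Cre Ssu72fl/fl and 4.86 on the Lysm-Cre array (0.14). It was not lower on the first, and whether its probes lie in the deleted part is not known, so it did not check the label on which every direction here rests. The floor was the median of all values on both arrays, 4.65. By that definition 50% of all values lie above the floor. All 13 alveolar macrophage markers examined were above it on both arrays, as were all 9 alveolar type 2 cell markers. On the arrays labelled Lysm-Cre Ssu72fl/fl and Lysm-Cre in that order, Chil3 was at 9.30 and 9.42 and Plet1 at 8.38 and 8.68. Siglecf was much dimmer, at 5.09 and 5.18. Brighter genes were lower as a group: among 743 genes with a mean level of 6 to 8 the median difference was -0.25, against -0.0068 over all 13015 compared genes, those above the floor on at least 1 array. Each difference is therefore set beside those of the 200 compared genes closest to it in mean level, with their median and their robust SD (the scaled median absolute deviation). That SD describes scatter between genes, not between animals.

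The promoters of the 6 brighter receptor genes, which were all lower on the array labelled Lysm-Cre Ssu72fl/fl as deposited, are shown to set the sequences of these genes side by side. Each is 300 bases long, from 250 before the gene's start to 50 after it, 5′ to 3′ on the gene's strand, from RefSeq (GRCm38.p6). Of the 10 genes, 9 had such a sequence. Capitals mark matches on either strand to GAGGAA (the core of PU.1 sites), TGANTCA (AP-1) and GGGCGG (GC box). No matches overlapped. The Axl promoter is at chr7:25788684-25788983 (minus strand), Olr1 at chr6:129507116-129507415 (minus), Cd68 at chr11:69666121-69666420 (minus), Lrp1 at chr10:127621099-127621398 (minus), Mertk at chr2:128698665-128698964 (plus) and Marco at chr1:120504975-120505274 (minus).
Axl: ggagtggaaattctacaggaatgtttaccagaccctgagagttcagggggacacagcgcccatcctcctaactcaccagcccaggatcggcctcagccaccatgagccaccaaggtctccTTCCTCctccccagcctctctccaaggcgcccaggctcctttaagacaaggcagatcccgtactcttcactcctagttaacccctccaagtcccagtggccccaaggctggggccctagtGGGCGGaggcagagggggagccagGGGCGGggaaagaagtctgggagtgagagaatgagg
Olr1: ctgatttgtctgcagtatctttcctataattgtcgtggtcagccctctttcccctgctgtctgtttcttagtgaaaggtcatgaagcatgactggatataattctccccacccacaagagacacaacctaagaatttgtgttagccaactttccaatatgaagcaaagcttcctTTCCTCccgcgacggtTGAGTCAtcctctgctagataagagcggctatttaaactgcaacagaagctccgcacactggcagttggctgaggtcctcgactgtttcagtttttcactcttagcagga
Cd68: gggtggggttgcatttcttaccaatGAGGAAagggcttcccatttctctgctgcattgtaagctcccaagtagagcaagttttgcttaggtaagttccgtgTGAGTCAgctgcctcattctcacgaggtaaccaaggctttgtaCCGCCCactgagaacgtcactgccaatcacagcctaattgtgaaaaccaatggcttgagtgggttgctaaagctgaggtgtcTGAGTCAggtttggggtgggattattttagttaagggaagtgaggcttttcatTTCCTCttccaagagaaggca
Lrp1: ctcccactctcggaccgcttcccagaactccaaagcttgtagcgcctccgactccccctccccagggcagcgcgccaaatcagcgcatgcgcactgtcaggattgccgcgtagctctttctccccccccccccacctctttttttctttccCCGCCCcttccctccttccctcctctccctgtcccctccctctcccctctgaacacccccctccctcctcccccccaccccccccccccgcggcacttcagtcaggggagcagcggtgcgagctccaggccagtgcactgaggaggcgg
Mertk: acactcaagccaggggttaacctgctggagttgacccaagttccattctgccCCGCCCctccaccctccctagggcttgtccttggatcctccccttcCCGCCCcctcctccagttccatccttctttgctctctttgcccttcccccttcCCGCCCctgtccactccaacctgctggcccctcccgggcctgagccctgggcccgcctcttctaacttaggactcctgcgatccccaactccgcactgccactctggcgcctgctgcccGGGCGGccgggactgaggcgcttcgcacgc
Marco: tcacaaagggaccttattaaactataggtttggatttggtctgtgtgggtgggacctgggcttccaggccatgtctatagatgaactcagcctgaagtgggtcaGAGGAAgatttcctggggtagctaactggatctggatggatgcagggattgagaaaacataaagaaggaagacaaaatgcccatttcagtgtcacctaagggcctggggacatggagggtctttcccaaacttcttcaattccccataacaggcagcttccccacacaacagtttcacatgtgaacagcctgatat
The sequences differed in base composition. Axl, Lrp1 and Mertk had GC contents of 60.3%, 67.7% and 66.0%, above the median of 52.7% over 32851 promoters, with 2, 1 and 4 GC boxes. Olr1, Cd68 and Marco had 46.0%, 47.7% and 47.3%, and of these Cd68 held 1 GC box. AP-1 matches were found in Cd68, which had 2, and in Olr1, which had 1. PU.1 core matches were found in Cd68 (2), Olr1, Marco and Axl (1 each), and also in Stab1. Cd163 and Timd4 held no match to the 3 motifs. Of all promoters, 28.3% held the PU.1 core, 7.81% the AP-1 letters and 35.7% the GC box. A match describes these letters only, and no binding was measured.

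Of the 10 receptor genes, 8 were above the floor on both arrays, and Msr1 and Timd4 were below it on both. All 8 that could be compared were lower on the array labelled Lysm-Cre Ssu72fl/fl, with a median difference of -0.47, although Axl was higher with the trend of difference on level removed or after quantile normalization. In a bulk sample, fewer cells of a type and less RNA per cell cannot be told apart. Over all compared genes 51.9% were lower, and 74.6% of genes with a mean level of 6 to 8 were lower, the range that held 6 of the 8. None of the 8 differed by 2-fold, as did 0.115% of compared genes (0.0845% on the lower side). Only Olr1 passed 1.5-fold, which 1.68% of compared genes did and 1.37% on the lower side, or 13.6% at a mean level of 6 to 8. With the trend of difference on level removed, 7 of the 8 and 5 of the 6 brighter ones were lower, against 46% of compared genes and 44.3% of those at a mean level of 6 to 8. Beside genes of like level, 7 of the 8 lay within 1 robust SD of the median of their closest genes, and Marco lay outside it. Around that median, 7 lay below it and Axl above it. The same shares over all compared genes were not counted, so neither count has a baseline and neither is read as a result.

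**Figure D1:**
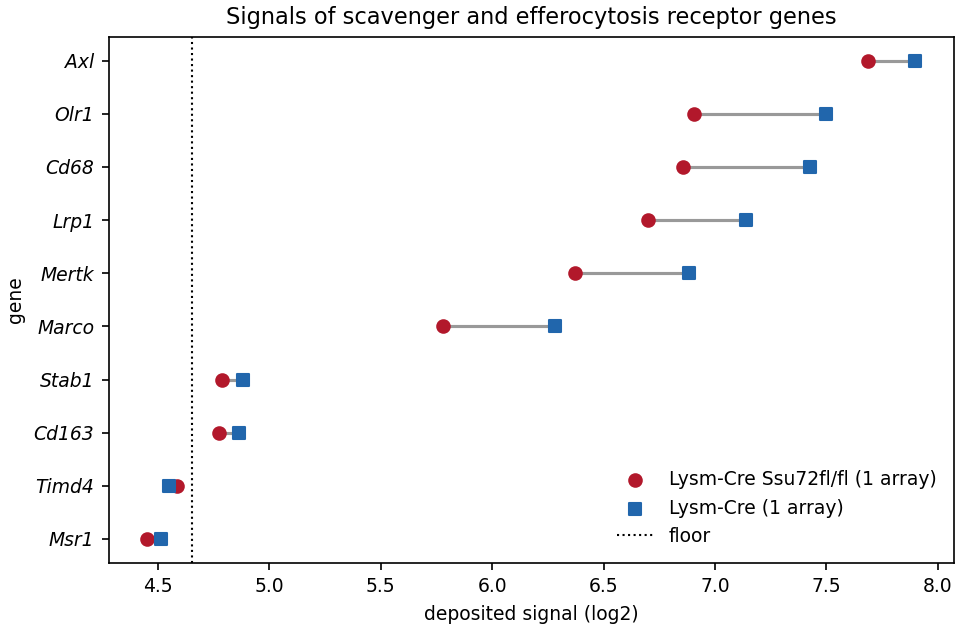
Deposited signals (log2, x axis) of the 10 receptor genes (y axis) on the array labelled Lysm-Cre Ssu72fl/fl (circles) and the Lysm-Cre array (squares), 1 array each, with the floor of 4.65 as a dotted line. The 6 upper genes lie at 5.78 or above on both arrays, Stab1 and Cd163 just above the floor, and Timd4 and Msr1 below it.

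Among the class A scavenger receptors, which are trimeric proteins with a collagen-like stalk, Marco was measured well above the floor and Msr1 was not. Marco, which binds unopsonised bacteria and particles in the airways, read 5.78 on the array labelled Lysm-Cre Ssu72fl/fl and 6.28 on the Lysm-Cre array. The difference was -0.51. The 200 closest genes had a median of -0.15 and a robust SD of 0.29, and 178 of them had a higher difference than Marco. It was the receptor gene farthest below its neighbours, at -1.22 robust SD from their median. Its rank among 22180 genes, where 1 is the brightest, was 1114 on the array labelled Lysm-Cre Ssu72fl/fl and 626 on the Lysm-Cre array. Msr1, the gene of scavenger receptor A, read 4.45 and 4.51 on the arrays labelled Lysm-Cre Ssu72fl/fl and Lysm-Cre. Both values are below the floor, so no difference is given. Its ranks there, 18326 and 15893, fall among genes below the floor and are not read as an order.

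Olr1 and Cd68 were both lower by about as much as each other and somewhat lower than genes of like signal. Olr1, the lectin-like receptor for oxidised LDL, read 6.90 on the array labelled Lysm-Cre Ssu72fl/fl and 7.50 on the Lysm-Cre array, a difference of -0.60. Of its 200 closest genes 152 had a higher difference, around a median of -0.40 with a robust SD of 0.30. Cd68, a heavily glycosylated protein of late endosomes and lysosomes that is widely used as a macrophage marker, read 6.86 and 7.43 on the arrays labelled Lysm-Cre Ssu72fl/fl and Lysm-Cre (-0.57). Of its closest genes 151 had a higher difference, around a median of -0.37 with a robust SD of 0.30. Most of each deposited difference was thus shared with genes of like signal. Ranks were 248 and 203 for Olr1, and 257 and 218 for Cd68, on the arrays labelled Lysm-Cre Ssu72fl/fl and Lysm-Cre.

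The 2 remaining scavenger receptor genes were close to the floor. Stab1, whose product stabilin-1 takes up modified lipoproteins and extracellular proteins, read 4.79 on the array labelled Lysm-Cre Ssu72fl/fl and 4.88 on the Lysm-Cre array (-0.094). Cd163, the receptor for haptoglobin-haemoglobin complexes, read 4.77 and 4.86 in the same order of arrays (-0.092). On neither array did they stand more than 0.23 above the floor. Of the 200 closest genes, 166 had a higher difference than Stab1 and 156 than Cd163, with robust SDs of 0.12 around medians of 0.013 and -0.0030. The ranks of Stab1 were 8783 on the array labelled Lysm-Cre Ssu72fl/fl and 6968 on the Lysm-Cre array, and those of Cd163 were 9157 and 7269. So near the floor, these ranks are not read as an order either.

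The receptors for apoptotic cells differed among themselves. Mertk, a receptor tyrosine kinase by which macrophages engulf apoptotic cells, read 6.37 on the array labelled Lysm-Cre Ssu72fl/fl and 6.89 on the Lysm-Cre array (-0.51). Of its 200 closest genes 171 had a higher difference, around a median of -0.23 with a robust SD of 0.29. Axl, the other kinase of the same family detected here, read 7.69 on the array labelled Lysm-Cre Ssu72fl/fl and 7.90 on the Lysm-Cre array. Its difference of -0.21 was smaller than those of genes of like signal, which had a median of -0.44 and a robust SD of 0.29, and 153 of those 200 had a lower difference than Axl. Mertk was thus below its neighbours and Axl above, each by less than 1 robust SD. The direction of Axl depended on the scaling: it was 0.26 with the trend of difference on level removed and 0.21 after quantile normalization. Timd4, a receptor that tethers apoptotic cells by their phosphatidylserine, read 4.58 and 4.55 on the arrays labelled Lysm-Cre Ssu72fl/fl and Lysm-Cre, below the floor on both. Its ranks in that order of arrays, 14098 and 14787, are, like those of Msr1, not read as an order.

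Lrp1, a large endocytic receptor of the LDL receptor family that also takes up cells marked by calreticulin, read 6.70 on the array labelled Lysm-Cre Ssu72fl/fl and 7.14 on the Lysm-Cre array (-0.44). Its closest genes had a median of -0.34 and a robust SD of 0.28, and 126 of the 200 had a higher difference. Of the 6 brighter receptor genes it was the nearest to the median of its closest genes, at -0.371 robust SD from it, and its difference was -0.012 after quantile normalization. Its rank was 316 on the array labelled Lysm-Cre Ssu72fl/fl and 285 on the Lysm-Cre array.

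**Figure D2:**
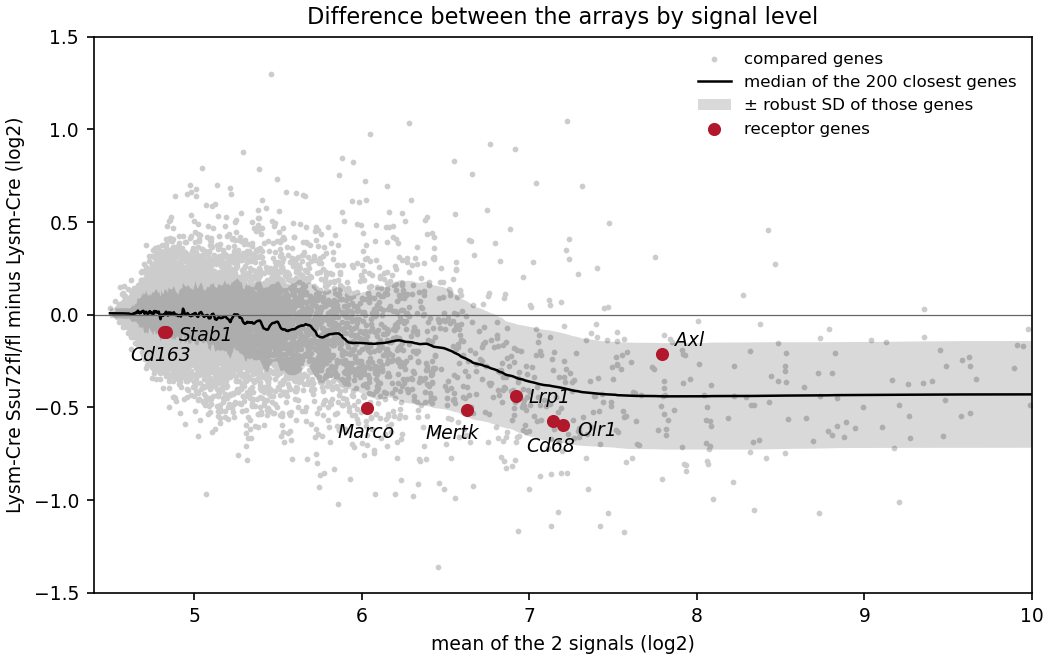
Difference between the arrays (Lysm-Cre Ssu72fl/fl minus Lysm-Cre, log2, y axis) against the mean of both signals (log2, x axis) for compared genes (grey), with the smoothed median of the 200 closest genes (line), their robust SD (band) and the 8 compared receptor genes (red). Marco lies below the band and Axl above the line, and 26 genes fall outside the axes.

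Ranks do not depend on how an array is scaled, but they move with how genes of several features are summarised. Of the 6 brighter receptor genes 5 ranked lower on the array labelled Lysm-Cre Ssu72fl/fl, against 52.4% of the 1000 genes with the highest mean signal. Axl alone among these 6 ranked higher there, at 122 on the array labelled Lysm-Cre Ssu72fl/fl and 145 on the Lysm-Cre array. Mertk was at rank 482 on the array labelled Lysm-Cre Ssu72fl/fl and at 349 on the Lysm-Cre array. Probes differ in brightness, so a rank is one of feature signal, not of transcript amount.

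**Figure D3:**
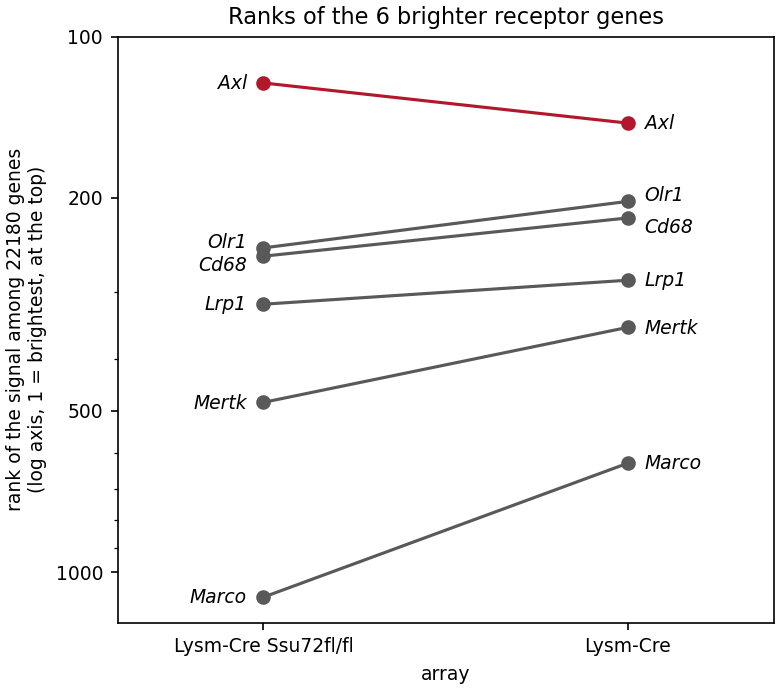
Rank of the signal among 22180 genes (y axis, log scale, brightest at the top) on the array labelled Lysm-Cre Ssu72fl/fl (left) and the Lysm-Cre array (right) for the 6 brighter receptor genes. The line of Axl (red) runs opposite to the other 5, and Marco, at 1114 and 626, has the largest gap of the 6.

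The genes with the most similar pair of signals, over 2 arrays, were of mixed kinds. Closest to Marco was the non-coding RNA gene Snhg20, at a distance of 0.0036 on the plane of both signals, followed by Fem1c (0.018). Closest to Olr1 were the immunoglobulin heavy chain gene Ighm (0.042) and the ribosomal protein gene Rpl7a (0.054), and closest to Cd68 were Rpl29 (0.032), also of the ribosome, and Ighm (0.046). Mertk lay near the endoplasmic reticulum chaperone gene Hspa5 (0.037) and Chmp2a (0.048), and Lrp1 near Gsap (0.027) and the transglutaminase gene Tgm2 (0.031). Axl had no neighbour closer than Rps3a1 (0.074) and S100a11 (0.091). Stab1 and Cd163 lay near Msra and Rdh16, and near Gimap3 and Nrn1, all within 0.0042.

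Other scavenger receptor genes had no direction that held under each scaling. Of 20 listed, 17 were compared, 12 lower and 5 higher (median -0.16, against 51.9% lower and a median of -0.0068 over all compared genes), but 7 were lower and 10 higher with the level trend removed, and 8 and 9 after quantile normalization. The list holds Lox, which encodes lysyl oxidase and is no receptor. Without it 12 of 16 were lower, with a median of -0.17. Cxcl16, a transmembrane chemokine that binds oxidised LDL, was lowest, at 6.15 on the array labelled Lysm-Cre Ssu72fl/fl and 6.92 on the Lysm-Cre array (-0.77), against a median of -0.20 and a robust SD of 0.32 among its closest genes. The hyaluronan receptor gene Cd44 (-0.54) and Cd207 (-0.45) followed. Highest were Scarf1 (0.17), a receptor for modified LDL, the HDL receptor gene Scarb1 (0.12) and Scara5 (0.05). Stab2, the relative of Stab1, was below the floor on both arrays, as were Megf10 and Cd5l.

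Other receptors for apoptotic cells, which share 6 listed genes with the scavenger list, were lower in 15 of 18 compared genes of 23 listed (median -0.16), against 51.9% of all compared genes. With the level trend removed 13 of the 18 were lower (-0.086), against 46%. Lowest were the fractalkine receptor gene Cx3cr1 (-0.63), Itgb5 (-0.42), a chain of the integrin that binds Mfge8, and the integrin gene Itgb2 (-0.38), which read 7.90 on the array labelled Lysm-Cre Ssu72fl/fl and 8.27 on the Lysm-Cre array. The closest genes of Itgb2 had a lower median, -0.44. Highest were Trem2 (0.20), a lipid-sensing receptor, Scarf1 (0.17) and Itgb3 (0.15). Tyro3, the remaining kinase of the Mertk and Axl family and named here for that reason, read 4.58 on the array labelled Lysm-Cre Ssu72fl/fl and 4.68 on the Lysm-Cre array, at the floor.

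Bridging molecules and opsonins, which coat apoptotic cells or microbes for uptake, were lower in 15 of 18 compared genes of 22 listed (median -0.27), against 51.9% of all compared genes. With the level trend removed 13 were lower, against 46%. Annexin genes and calreticulin were lowest: Anxa5 (-0.70), Calr (-0.64) and Anxa1 (-0.52). Genes of like signal were lower too for Anxa5 and Calr. The closest genes of Anxa5 had a median of -0.44 and a robust SD of 0.27, and those of Calr -0.41 and 0.29. Anxa1 read 5.02 on the array labelled Lysm-Cre Ssu72fl/fl and 5.54 on the Lysm-Cre array, and none of its 200 closest genes had a lower difference. The bridging ligands of these kinases showed small differences. Pros1, a ligand of Mertk, at 5.23 on the array labelled Lysm-Cre Ssu72fl/fl and 5.14 on the Lysm-Cre array (0.09), was the highest of the list. Gas6, a ligand of both Mertk and Axl named after its values were seen, was at 4.71 on the array labelled Lysm-Cre Ssu72fl/fl and 4.81 on the Lysm-Cre array (-0.096).

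Genes of the engulfment machinery, which turns receptor binding into actin-driven uptake, were lower in 23 of 26 compared genes of 30 listed (median -0.15). With the level trend removed 19 were lower. The shares over all compared genes were 51.9% as deposited and 46% with the level trend removed. The small GTPase genes Cdc42 (-0.85), Rhoa (-0.69) and Rac1 (-0.47) were lowest. Cdc42 read 6.80 on the array labelled Lysm-Cre Ssu72fl/fl and 7.66 on the Lysm-Cre array, and 11 of its 200 closest genes had a lower difference. Highest were Map1lc3b (0.03) and Map1lc3a (0.01), which serve in LC3-associated phagocytosis, and Wasl (0.0032).

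**Figure D4:**
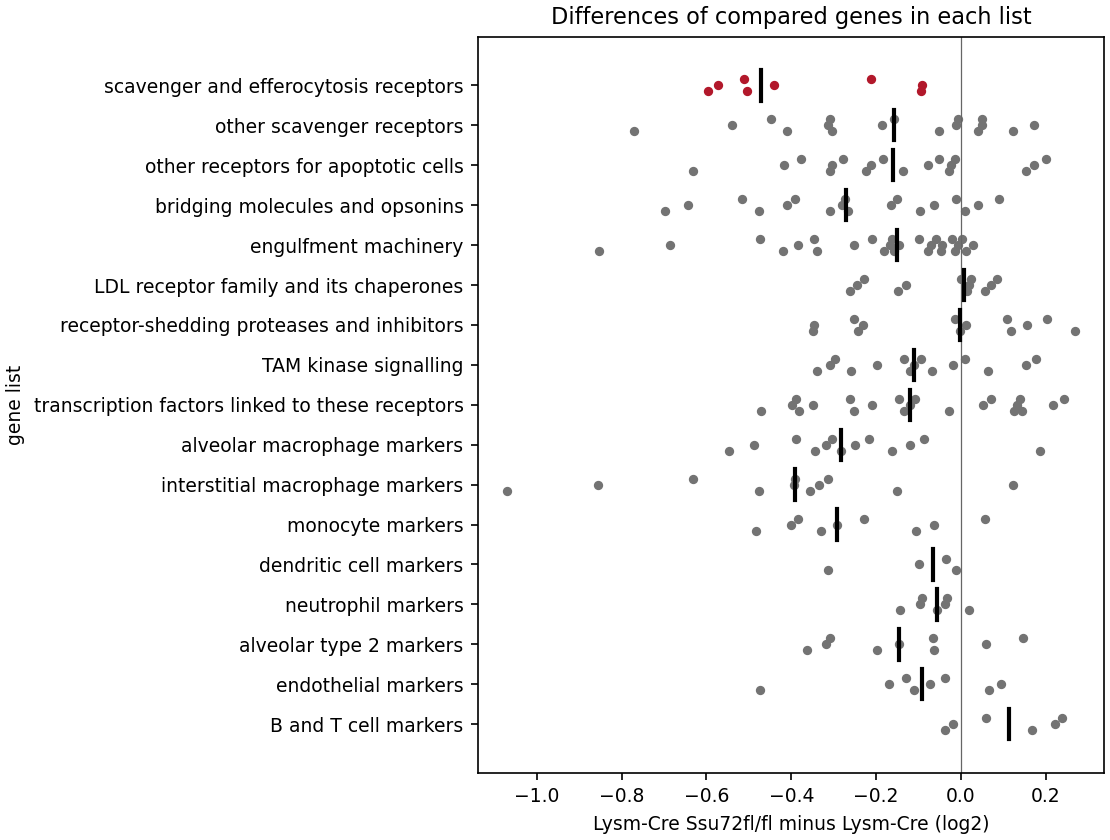
Differences (Lysm-Cre Ssu72fl/fl minus Lysm-Cre, log2, x axis) of the compared genes in each gene list (y axis), 1 point a gene, with the median of each list as a bar. The receptor genes (red) have a median of -0.47, and the interstitial macrophage markers, at -0.39, reach lowest with H2-Ab1 at -1.07.

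Markers of cell types, the sorted type among them, are given beside these values. Of all compared genes 51.9% were lower, or 46% with the level trend removed. Of the interstitial macrophage markers, 10 of 11 compared were lower (median -0.39), from the MHC class II genes H2-Ab1 (-1.07) and H2-Aa (-0.86) and Cx3cr1 (-0.63) to C1qc (-0.15), Folr2 (0.12) being the exception. The mean signal of the 12 with a feature was 5.82 on the array labelled Lysm-Cre Ssu72fl/fl and 6.23 on the Lysm-Cre array. Of these 12, only Pf4 was below the floor on both. Monocyte markers were lower in 8 of 9, with mean signals of 5.12 on the array labelled Lysm-Cre Ssu72fl/fl and 5.38 on the Lysm-Cre array. Alveolar macrophage markers were lower in 12 of 13 (median -0.28), at 6.62 on the array labelled Lysm-Cre Ssu72fl/fl and 6.87 on the Lysm-Cre array, with Fabp4 (0.19) higher, but 7 were lower and 6 higher with the level trend removed. Alveolar type 2 cell markers were lower in 7 of 9, at 5.59 and 5.73, with Sftpc at 8.35 and 8.71, in the same order of arrays. Endothelial markers were lower in 6 of 8 (4.90 and 5.002), neutrophil markers in 6 of 7 (4.75 and 4.78) and dendritic cell markers in 4 of 4 (5.25 and 5.31), while B and T cell markers were higher in 4 of 6 (4.82 and 4.76), all in that order of arrays. With the level trend removed the counts lower were 9 of 11 for interstitial macrophage, 8 of 9 for monocyte, 6 of 9 for type 2 cell, 6 of 8 for endothelial, 6 of 7 for neutrophil, 3 of 4 for dendritic cell and 2 of 6 for B and T cell markers. The mean signals of the neutrophil markers lay close to the floor of 4.65. Below the floor on both arrays were Emcn of the endothelial markers, Ly6g, Camp and Cxcr2 of the neutrophil markers, Xcr1, Zbtb46, Itgae and Ccr9 of the dendritic cell markers, and Ms4a1, Cd3e and Cd3g of the B and T cell markers. Cd209a, listed for dendritic cells, was at 8.65 on the array labelled Lysm-Cre Ssu72fl/fl and 8.97 on the Lysm-Cre array. The part of these cells in the differences of the receptor genes was not tested.

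**Figure D5:**
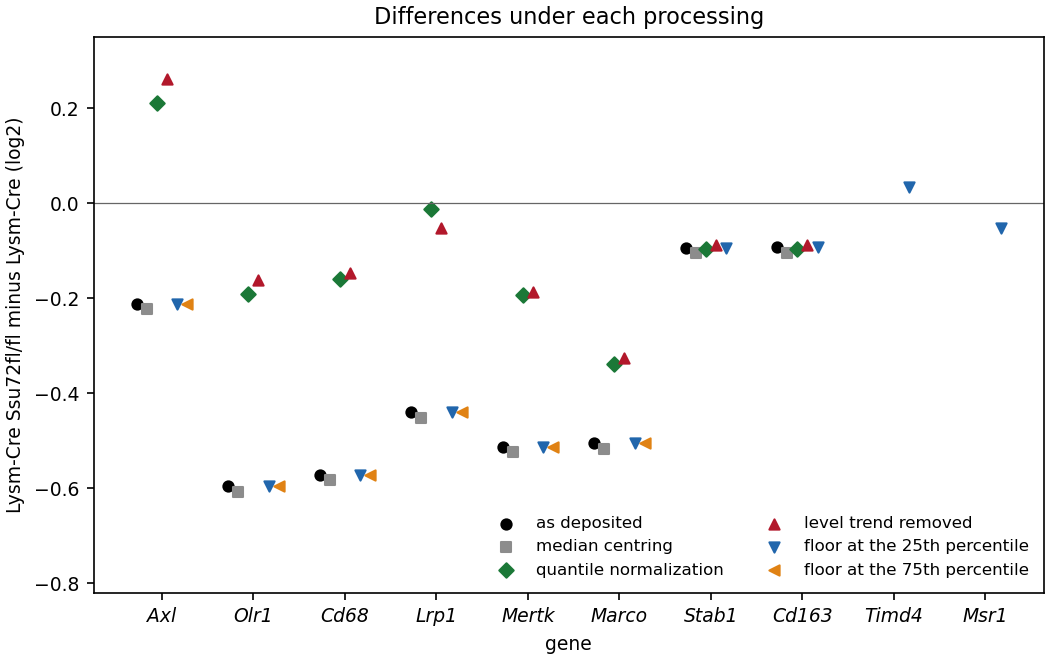
Difference of each receptor gene (Lysm-Cre Ssu72fl/fl minus Lysm-Cre, log2, y axis) by gene (x axis) under 6 ways of processing the same 2 arrays, 1 point each. Axl lies at -0.21 as deposited and at 0.26 with the level trend removed, Marco between -0.52 and -0.33, Mertk between -0.52 and -0.19, Cd68 between -0.58 and -0.15, Olr1 between -0.61 and -0.16, and Lrp1 between -0.45 and -0.012.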

How the data were processed

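Total RNA of sorted alveolar macrophages was labelled with biotin from 6 ug and hybridised to Affymetrix arrays, per the labels' protocols. The deposited values are log2 signals made by the authors, 1 for each of 33793 features; the log2 scale was inferred from their range of 4.23 to 13.5. MAS5 is listed, with no role, in the submitters' processing notes. The sources used here do not give background correction, normalization or centring, and an offset would shrink differences at low signal. Column medians were 4.66 (Lysm-Cre Ssu72fl/fl) and 4.65 (Lysm-Cre).

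Features were named from the platform annotation, in which 23521 carried 1 symbol, 1814 several and 8458 none. Those with 1 were used, 23328 of them updated through the Entrez identifier to RefSeq (GRCm38.p6). Each gene took its feature with the highest mean. Values below the floor (50th percentile of all values) were set to it, and a gene below it on 1 array has only a bound. The sources used here do not give the array's build.

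Differences were computed in Python 3.11.15 (pandas 2.3.3, statsmodels 0.14.6). No statistical test was made, since each genotype had 1 array. For the level-adjusted values, a lowess curve (fraction 0.3) on medians of level bins 0.1 wide with at least 10 features was removed. The procedure was tested on simulated data. The differences planted there were larger than any of the receptor genes and only in genes well above the floor. That test therefore does not cover differences of the size seen here. The receptor genes and gene lists were chosen with earlier results of these data known. Genes named in the text are the receptor genes, Ssu72, the 2 genes nearest to each receptor gene by both signals (without predicted and clone-named genes), up to 3 at each end of each list, listed genes above level 8 and alveolar macrophage markers. Some genes shared between lists and those marked as chosen otherwise are named too. All cell type markers below the floor on both arrays are named.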

Additional observations from a re-analysis of the deposited data

How the results depend on the processing

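Of the 8 compared receptor genes, 8 were lower under median centring, 7 after quantile normalization and 7 with the level trend removed, Axl being the exception in both. The median difference of -0.47 became -0.13 after quantile normalization and -0.12 with the level trend removed, both of which take out the lower values shared by bright genes. It was -0.48 under median centring. With the floor at the 25th percentile 10 were compared and 9 were lower (median -0.33). With the floor at the 75th percentile 6 were compared and all 6 were lower (-0.51). No receptor gene reached 2-fold under any of these settings. At 1.5-fold 1 did so as deposited, Olr1, whose difference was -0.19 after quantile normalization and -0.16 with the level trend removed. Taking the mean over a gene's features, or leaving symbols as annotated, gave the same differences, since each receptor gene had 1 feature under 1 name. The mean over features moved ranks through other genes: those of Marco became 1020 on the array labelled Lysm-Cre Ssu72fl/fl and 564 on the Lysm-Cre array, and those of Axl 104 and 123. Of 56 values of single receptor genes under the alternatives, 53 were below 0 and 3 above it, of which 2 were Axl and 1 Timd4. Many of the 56 repeat the deposited difference by construction, and median centring shifts all genes alike, so this count does not bear on direction. Only quantile normalization and removal of the level trend rescaled the values by level, and each left 7 of 8 lower. With the 100 or 400 closest genes, or protein-coding genes only, chosen after seeing the data, each of the 8 stayed on its side of the middle: 12 of 100, 41 of 400 and 21 of 200 coding genes had a lower difference than Marco, and 79, 271 and 158 a lower one than Axl. With the trend removed, the median of the other scavenger receptors was 0.032, that of the bridging molecules -0.10 and that of the interstitial macrophage markers -0.28; after quantile normalization, also tried after seeing the data, they were 0.027, -0.11 and -0.29. No replicate could be left out, and no paired analysis was possible because each genotype had 1 array. Signals near the floor, those of Msr1, Timd4, Stab1 and Cd163, limit what can be compared.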

Other observations

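Other lists of genes that act around these receptors showed no common direction. They share Vav1 and Nr1h3 with the engulfment machinery. Over all compared genes 51.9% were lower. Of 12 compared genes of the LDL receptor family and its chaperones, 6 were lower and 6 higher (median 0.0062, and -0.0057 under median centring). Lrp12 (-0.26), Lrp4 (-0.24) and Lrp5 (-0.23) were lowest, and Lrp6 (0.08), Lrp8 (0.07) and Sorl1 (0.06) highest. Lrpap1, the chaperone of Lrp1, was at 4.76 on the array labelled Lysm-Cre Ssu72fl/fl and 4.74 on the Lysm-Cre array. It is named here for that role. Among 13 compared proteases that shed receptors, with their inhibitors, 7 were lower and 6 higher (median -0.0024, and 0.075 with the level trend removed). Mmp14 (-0.35), Adam17 (-0.35), which cleaves Mertk from the cell surface, and Adam10 (-0.25) were lowest, and Adam9 (0.27), Bace1 (0.20) and Rhbdf1 (0.16) highest. Adam17 read 4.95 on the array labelled Lysm-Cre Ssu72fl/fl and 5.30 on the Lysm-Cre array, and 6 of its 200 closest genes had a lower difference.

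Genes of signalling below Mertk and Axl were lower in 11 of 15 (median -0.11), from Vav1 (-0.34) and Plcg2 (-0.31) to Shc1 (0.18) and Socs1 (0.15), an inhibitor of cytokine signalling. With the level trend removed 7 were lower and 8 higher. Over all compared genes 51.9% were lower as deposited and 46% with the level trend removed. Transcription factors linked to these receptors were lower in 13 of 21 (median -0.12), and in 10 of 21 with the level trend removed, near the shares over all compared genes, 51.9% and 46%. The myeloid factor genes Cebpa (-0.47) and Spi1 (-0.40), which encodes PU.1, and the lipid-sensing receptor gene Pparg (-0.39) were lowest, and Maf (0.24), Rxrb (0.22) and Ppard (0.14) highest. Spi1 read 6.10 on the array labelled Lysm-Cre Ssu72fl/fl and 6.50 on the Lysm-Cre array, and its closest genes had a median of -0.15 with a robust SD of 0.33.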
